A study of Mus musculus with 2 samples.

Results

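The mitochondrial carriers of the Slc25 family are described here in heart tissue. Members were the genes with the symbol Slc25a and a number that have a protein-coding transcript in the annotation, which gave 47 of the 55536 Ensembl genes in the tables. The rule uses names and annotation. Total RNA came from hearts of B6CASTF1/J females, the F1 hybrids of the C57BL/6J and CAST/EiJ strains, aged 18 to 20 months. There was 1 group, untreated as far as the labels say, with replicates 1 and 2 prepared from 300 ng of RNA each. The labels number the libraries as biological replicates 1 and 2, with separate biosamples but the same donor entry. Whether they came from separate animals is not stated, so part of the spread between replicates may be technical. With no second group, no contrast could be tested, and levels are given per library and as mean ± SD.

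Carriers of this family are folded from repeats of paired membrane-spanning helices and move small molecules across the inner mitochondrial membrane, mostly as exchangers. They bring ADP, phosphate, fuels and cofactors to the matrix and return ATP and metabolic products to the cytosol. In cardiac muscle the adenine nucleotide and phosphate carriers supply ATP synthase with its substrates, and the malate-aspartate shuttle and the carnitine carrier feed reducing equivalents and fatty acids to oxidation.

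Levels are in TPM, a relative abundance per transcript length scaled over all rows of a library, from the gene table with the column layout of RSEM unless a second table with the layout of kallisto is named. The libraries held 35897521 (replicate 1) and 36926429 (replicate 2) expected counts. At this depth, 0 counts for a gene leave room for a true mean of up to about 3 counts, or 0.0836 and 0.0812 CPM. The tissue label was checked against cardiomyocyte markers, and all 8 were present, from 396 TPM for Ryr2 to 8743 TPM for Myl2. Markers of hepatocytes, skeletal muscle and testis germ cells were under 1 TPM in both libraries, with Alb, Fgb, Myh2 and Myh4 at 0. Replicate 1 held more erythroid and less adipocyte, atrial and airway marker RNA than replicate 2. Coordinates are those of mm10 in the GENCODE M21 annotation.

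The family was broadly present but its transcripts were concentrated in a few members. At 1 TPM or more in both libraries, 37 of 47 members (78.7%) were detected, against 49.9% of 22015 nuclear protein-coding genes. By mean level, 5 members exceeded 100 TPM, 13 lay between 10 and 100 TPM, 20 between 1 and 10 TPM and 9 under 1 TPM. The members summed to 4032 TPM in replicate 1 against 3946 TPM in replicate 2, which was 0.981% ± 0.00746 of the TPM of nuclear protein-coding genes (SD, n = 2). Slc25a4 alone held 47.0% ± 0.630 of that sum, Slc25a4 and Slc25a3 together 73.6% ± 0.0365, and the highest 10 members 93.7% ± 0.151. The median over all members was 5.49 TPM in replicate 1 against 6.97 TPM in replicate 2, while that of nuclear protein-coding genes was 1.10 and 1.29 TPM. Among detected genes the medians were close, 9.25 and 9.98 TPM for the members against 8.78 and 9.02 TPM for nuclear protein-coding genes.

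The order of the leading members was the same in both libraries except for a single exchange. In the 9 steps between neighbours among the highest 10 members, 8 had libraries that did not overlap. The exception was Slc25a39 and Slc25a20, which changed places between the libraries. Over all 36 steps among the 37 detected members, 20 overlapped, so below about 30 TPM the order of single neighbours was mostly within the spread.

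**Figure D1:**
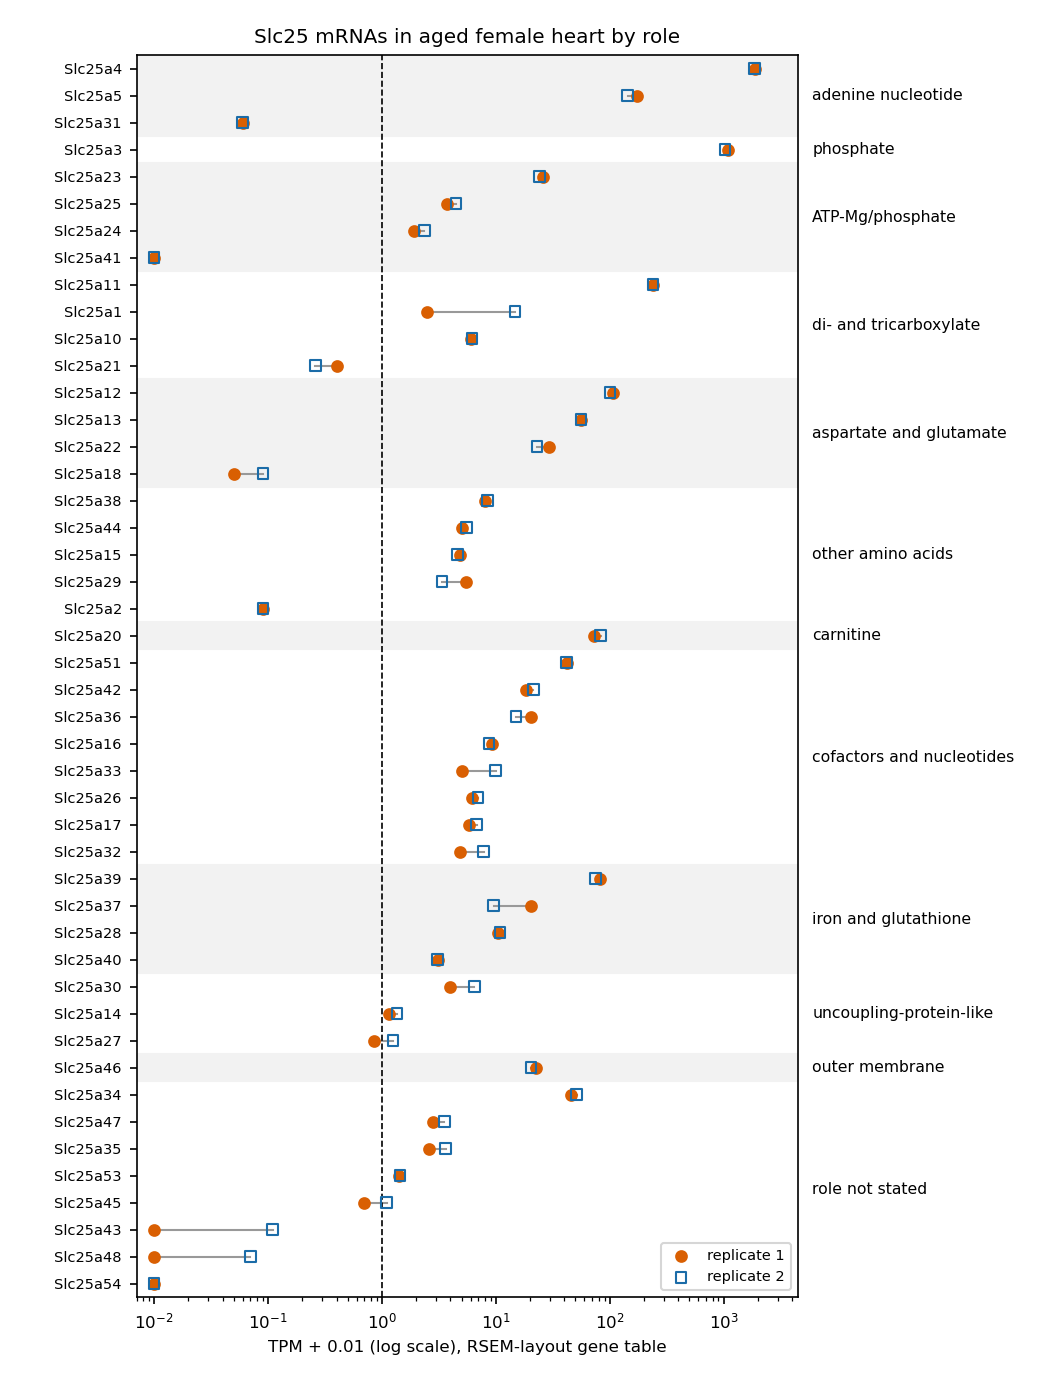
Levels of 46 of the 47 members, grouped by role, on a log axis of TPM + 0.01, with replicate 1 as filled circles, replicate 2 as open squares and a dashed line at 1 TPM. Slc25a4 and Slc25a3 lie farthest to the right in both libraries, and Slc25a1, Slc25a37 and Slc25a33 have the widest gaps among members above 1 TPM.

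Adenine nucleotide carriers exchange matrix ATP for cytosolic ADP. Slc25a4, the form known from heart and skeletal muscle (chr8:46206797-46211284, minus strand), had 1878 TPM in replicate 1 against 1873 TPM in replicate 2 (mean 1876 ± 3.52). It ranked 17 among nuclear protein-coding genes and was nearly level between the libraries. Slc25a5, the form known from growing tissues (chrX:36795651-36798807, plus strand), had 172 TPM in replicate 1 against 144 TPM in replicate 2. Slc25a31, known from the male germ line, had 0.05 TPM in each library, from 3 expected counts in each. The heart thus held both somatic forms, with the germ line form at the counting floor.

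The coding sequences of Slc25a4 and Slc25a5 were identical at 692 of 894 aligned bases (77.4%), and those of Slc25a4 and Slc25a31 at 61.9%. The stretch that encodes the signature of ADP/ATP carriers, a run of arginines followed by methionines, is shown because these relatives share it as protein while their bases differ. It is given here as in the GENCODE M21 reference transcripts, 5′ to 3′, with the 18 bases of the signature in capitals. Each stretch is joined across an intron, which the genomic spans include: chr8:46207619-46208455 on the minus strand for Slc25a4, chrX:36797819-36798388 on the plus strand for Slc25a5 and chr3:40722710-40724885 on the plus strand for Slc25a31.
Slc25a4: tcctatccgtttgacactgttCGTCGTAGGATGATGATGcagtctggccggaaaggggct
Slc25a5: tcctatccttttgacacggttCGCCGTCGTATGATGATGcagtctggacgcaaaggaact
Slc25a31: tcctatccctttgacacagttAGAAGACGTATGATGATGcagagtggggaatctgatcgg
Between Slc25a4 and Slc25a5, 15 of the 18 signature bases and 51 of all 60 bases are identical. Between Slc25a4 and Slc25a31 these numbers are 12 and 38.

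Slc25a4 exceeded Slc25a5 by 3.45 in replicate 1 and 3.70 in replicate 2 on the scale of log2(TPM + 0.1), with a mean of 3.58 ± 0.18 or 11.9-fold. A pair of relatives was called when its difference had the same sign in the libraries and was larger in each than the gap between the libraries, and this pair was called. None of the 31-nt words of the coding transcript of Slc25a4 occurs in another gene, while 67.1% of those of Slc25a5 also occur in 13 other genes. Those 13 genes together held 6.50 expected counts in replicate 1 and 7.58 in replicate 2, against 5461.5 and 4815 for Slc25a5. Since a count can be split among near-identical copies, the level of Slc25a5 is the less certain of the pair. For Slc25a4 over Slc25a31 the log2 difference of 13.61 became 10.80 with a pseudocount of 1, as Slc25a31 was at the floor.

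Slc25a3 carries phosphate into the matrix together with a proton (chr10:91116574-91124059, minus strand). It had 1089 TPM in replicate 1 against 1028 TPM in replicate 2 (mean 1058 ± 42.7) and ranked 37 among nuclear protein-coding genes. In both libraries it was the member closest to Slc25a4. The calcium-regulated carriers that exchange ATP-Mg for phosphate were lower. Slc25a23 had 25.8 TPM in replicate 1 against 24.3 TPM in replicate 2, Slc25a25 had 3.74 and 4.47 TPM, and Slc25a24 had 1.90 and 2.34 TPM. Slc25a41, the remaining relative, had 0 counts in both libraries. The order Slc25a23, Slc25a25, Slc25a24 was the same in both libraries, with Slc25a23 over Slc25a24 by 3.51 ± 0.27 on the log2 scale, against 4.13 in the kallisto-layout table, and a difference of -0.92 ± 0.025 for Slc25a24 minus Slc25a25.

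Slc25a3 is spliced with either of a pair of alternative exons, of which exon 3A is known from the isoform of heart and skeletal muscle and exon 3B from the isoform of most tissues. Their sequences are shown because the isoform of Slc25a3 is read from them. Exon 3A of Slc25a3-206 lies at chr10:91122207-91122331 and has 125 nt, and exon 3B of Slc25a3-201 lies at chr10:91121922-91122043 and has 122 nt, both on the minus strand. The exon is in capitals, and 12 bases of each joined neighbour are in lower case.
Exon 3A: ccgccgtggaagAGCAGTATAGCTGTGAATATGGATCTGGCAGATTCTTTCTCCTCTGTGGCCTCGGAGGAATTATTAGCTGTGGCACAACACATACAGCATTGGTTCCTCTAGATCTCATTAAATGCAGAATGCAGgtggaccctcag
Exon 3B: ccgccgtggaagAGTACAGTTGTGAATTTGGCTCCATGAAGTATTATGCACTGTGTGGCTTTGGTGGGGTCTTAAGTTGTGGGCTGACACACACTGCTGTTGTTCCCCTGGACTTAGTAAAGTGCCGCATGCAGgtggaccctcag
Aligned end to end, the exons are identical at 80 of 126 positions (63.5%), gaps counted as differences.

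The transcript with exon 3A dominated. Slc25a3-206 took 92.53% of the TPM of Slc25a3 in replicate 1 and 92.14% in replicate 2 (92.3% ± 0.276) by the deposited isoform percent. The transcripts with exon 3B, Slc25a3-201 and Slc25a3-203, together took 7.04% in replicate 1 and 7.37% in replicate 2 (7.21% ± 0.233). The libraries thus differed by far less than the exons. In the kallisto-layout table the share of Slc25a3-206 was 76.3% in replicate 1 and 74.7% in replicate 2, and exon 3B took 19.4% and 20.2%. Exon 3A led in all 4 readings, but the choice of table moved its share more than the choice of library did.

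The tables also differed in a transcript that keeps an intron. Slc25a3-203 retains the 209-nt intron 1 (chr10:91123707-91123915) and held 17.1% of Slc25a3 in the kallisto-layout table, against 0.430% in the RSEM-layout table. Slc25a3-201, the spliced transcript with exon 3B, held 2.72% in the kallisto-layout table and 6.78% in the RSEM-layout table. Slc25a3-202, annotated as a target of nonsense-mediated decay, has exon 3A extended by 99 nt and held 3.70% in the kallisto-layout table and 0% in the RSEM-layout table. Which assignment of reads is nearer to the tissue was not tested.

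**Figure D2:**
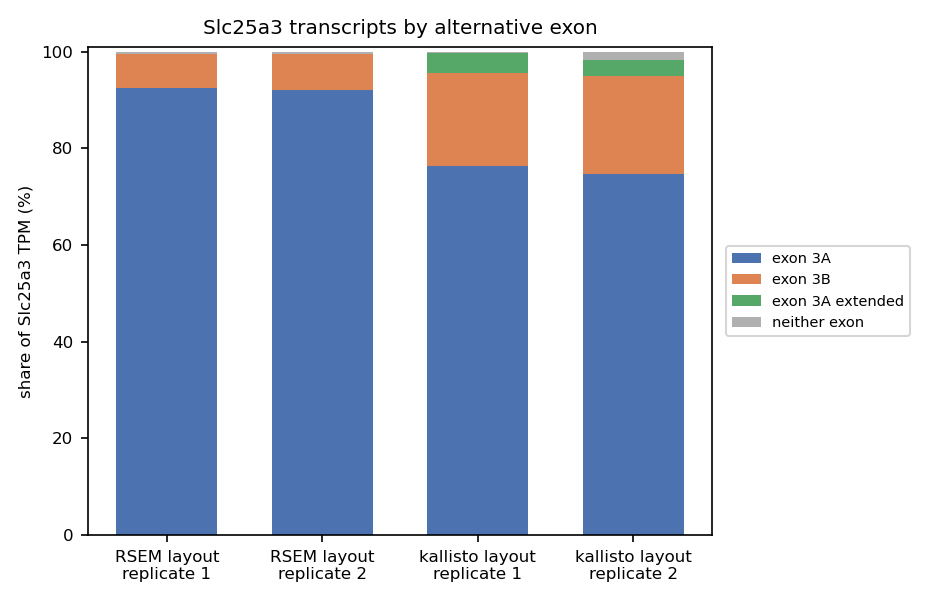
Share of Slc25a3 TPM in percent by the alternative exon a transcript holds, for replicates 1 and 2 in the RSEM-layout table and in the kallisto-layout table. Exon 3A takes 92.5% and 92.1% in the RSEM-layout table and 76.3% and 74.7% in the kallisto-layout table.

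Carriers of the malate-aspartate shuttle were high and, in the RSEM-layout table, even. Slc25a11, which exchanges oxoglutarate for malate (chr11:70644196-70647479, minus strand), ranked 3 in the family with 239 TPM in replicate 1 against 241 TPM in replicate 2. Of its 31-nt words 8.20% also occur in Rnf167 on the opposite strand, which had 18.9 TPM in replicate 1 against 24.5 TPM in replicate 2. Slc25a12, the aspartate-glutamate carrier known from heart, skeletal muscle and brain (chr2:71271063-71367749, minus strand), had 107 TPM in replicate 1 against 100.5 TPM in replicate 2. Slc25a13, its relative known from the liver, had 56.4 TPM in replicate 1 against 56.1 TPM in replicate 2. In the kallisto-layout table Slc25a11 had 320 TPM in replicate 1 against 361 TPM in replicate 2. Slc25a12 had 114 and 129 TPM there, and Slc25a13 had 59.0 and 61.5 TPM. Slc25a12 exceeded Slc25a13 by 0.92 in replicate 1 and 0.84 in replicate 2 on the log2 scale (0.88 ± 0.058, or 1.84-fold). Among the glutamate carriers, Slc25a22 had 29.1 TPM in replicate 1 against 23.0 TPM in replicate 2. Slc25a18 was near the floor with 0.04 TPM in replicate 1 against 0.08 TPM in replicate 2, from 2 and 4 expected counts.

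The transcripts behind the level of Slc25a12 were mostly not annotated as coding. Slc25a12-207, annotated as a target of nonsense-mediated decay, took 66.4% of the TPM of Slc25a12 in replicate 1 and 69.1% in replicate 2. Slc25a12-206, the protein-coding transcript of the gene, took 9.66% and 9.50%. By expected counts, which do not correct for length, Slc25a12-207 held 69.5% and Slc25a12-206 26.8% on average. In the kallisto-layout table Slc25a12-207 also led, with 57.2% in replicate 1 and 53.0% in replicate 2, while Slc25a12-206 took 12.98% and 10.8%. The lead was therefore seen in both libraries and both tables.

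The transcripts share 15 exons, with identical ends, of the 18 in Slc25a12-206 and the 17 in Slc25a12-207. Slc25a12-206 has 6351 nt with a last exon of 4291 nt, and Slc25a12-207 has 2392 nt with a last exon of 664 nt and a shorter first exon of 21 nt. Slc25a12-207 also lacks exon 4, which has 116 nt (chr2:71333605-71333720, minus strand) and is shown because its absence is the internal difference between the transcripts. Its length is not a multiple of the codon length. The exon is in capitals, with 12 bases of each joined neighbour in lower case.
Exon 4: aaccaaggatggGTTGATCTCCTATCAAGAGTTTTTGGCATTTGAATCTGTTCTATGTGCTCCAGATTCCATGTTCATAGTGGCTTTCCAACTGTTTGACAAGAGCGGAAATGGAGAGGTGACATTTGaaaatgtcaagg
Whether skipping of exon 4, the shorter last exon or the shorter first exon led reads to be assigned to Slc25a12-207 was not tested. It cannot be read from tables of transcript totals.

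Counting only protein-coding transcripts reversed this pair. Slc25a12 then had 10.3 TPM in replicate 1 against 9.55 TPM in replicate 2, and Slc25a13 had 54.5 and 55.8 TPM. The log2 difference of Slc25a12 minus Slc25a13 was then -2.39 in replicate 1 and -2.53 in replicate 2. This alternative was chosen after the transcript shares were seen.

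**Figure D3:**
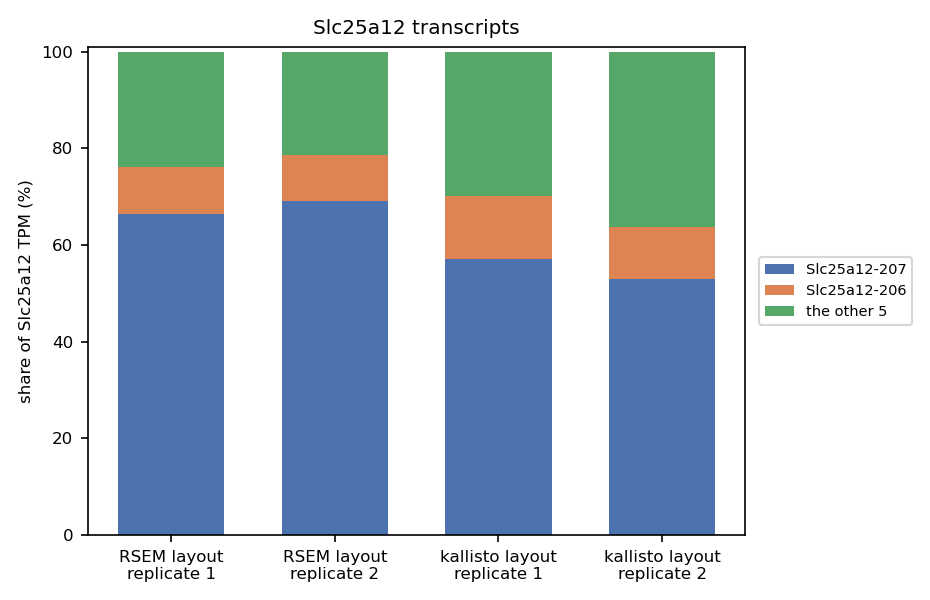
Share of Slc25a12 TPM in percent by transcript, for replicates 1 and 2 in the RSEM-layout table and in the kallisto-layout table. Slc25a12-207, annotated as a target of nonsense-mediated decay, takes 66.4% and 69.1% in the RSEM-layout table and 57.2% and 53.0% in the kallisto-layout table.

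The other carriers of di- and tricarboxylates were lower than Slc25a11 and less even. Slc25a1, which exports citrate for cytosolic acetyl-CoA and lipid synthesis, had 2.47 TPM in replicate 1 against 14.7 TPM in replicate 2. Slc25a10, the carrier of malate and succinate against phosphate, had 6.09 TPM in replicate 1 against 6.19 TPM in replicate 2. Slc25a21, the carrier of oxoadipate, had 0.39 TPM in replicate 1 against 0.25 TPM in replicate 2. Slc25a11 exceeded Slc25a10 by 5.27 ± 0.011 on the log2 scale (38.5-fold), against 5.62 in the kallisto-layout table. The order of Slc25a1 and Slc25a10 turned between the libraries, and that pair was not called.

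Slc25a20 exchanges acylcarnitines for carnitine and so admits long-chain fatty acids to the matrix (chr9:108662088-108684641, plus strand). It had 72.5 TPM in replicate 1 against 83.2 TPM in replicate 2 (mean 77.8 ± 7.54). Slc25a29, a relative that carries basic amino acids, had 5.49 TPM in replicate 1 against 3.37 TPM in replicate 2, so Slc25a20 was 17.7-fold higher by the mean log2 difference of 4.14 ± 0.63. The other carriers of amino acids lay in the same low range. Slc25a38, a glycine carrier, averaged 8.20 TPM, Slc25a44, a carrier of branched-chain amino acids, 5.28 TPM, and Slc25a15, the ornithine carrier of the urea cycle, 4.71 TPM. Slc25a2, a further ornithine carrier known in human, had 0.08 TPM in both libraries, from 3 expected counts in each.

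The carriers of cofactors and nucleotides were the only role with more than 4 members in which all members were detected, 9 of 9, from 6.30 to 41.8 TPM by mean. Slc25a51, the NAD carrier, led with 41.9 TPM in replicate 1 against 41.7 TPM in replicate 2. Slc25a42, a coenzyme A carrier, had 18.6 TPM in replicate 1 against 21.3 TPM in replicate 2, and Slc25a36, a carrier of pyrimidine nucleotides, had 20.6 and 14.98 TPM. Slc25a16, linked to coenzyme A, had 9.25 TPM in replicate 1 against 8.73 TPM in replicate 2. Slc25a33, also a pyrimidine nucleotide carrier, had 5.07 TPM in replicate 1 against 9.98 TPM in replicate 2. Slc25a32, linked to folate and FAD, had 4.81 TPM in replicate 1 against 7.79 TPM in replicate 2. Its gap was smaller in expected counts scaled to the library totals, with replicate 1 over replicate 2 at 0.755. Slc25a26, the S-adenosylmethionine carrier, and Slc25a17, the carrier of peroxisomes, had 5.84 to 6.97 TPM over both libraries.

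Iron and glutathione carriers were all detected. Slc25a39, a glutathione importer, had 81.4 TPM in replicate 1 against 75.4 TPM in replicate 2, and its relative Slc25a40 had 3.09 and 3.07 TPM, a difference of 4.63 ± 0.072 on the log2 scale (24.7-fold). In the kallisto-layout table that difference was 5.27. Slc25a28, the mitoferrin of most tissues, had 10.5 TPM in replicate 1 against 10.9 TPM in replicate 2. Slc25a37, the mitoferrin known from red cell precursors, had 20.4 TPM in replicate 1 against 9.57 TPM in replicate 2. Slc25a28 was thus below Slc25a37 by 0.95 on the log2 scale in replicate 1 and above it by 0.19 in replicate 2, and the pair was not called.

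Of the remaining members, Slc25a34, for which no substrate is stated here, stood out by level, with 46.1 TPM in replicate 1 against 51.4 TPM in replicate 2. Slc25a46, an outer membrane protein of mitochondrial fusion and fission, averaged 21.5 ± 1.499 TPM. The relatives of the uncoupling proteins were low, with Slc25a30 at 3.94 TPM in replicate 1 against 6.47 TPM in replicate 2, and Slc25a14 and Slc25a27 at 1.25 and 1.04 TPM by mean. In expected counts scaled to the library totals, replicate 1 over replicate 2 was 0.799 for Slc25a30, a smaller gap than in TPM. Slc25a47 had 2.80 TPM in replicate 1 against 3.52 TPM in replicate 2, Slc25a35 and Slc25a53 averaged 3.10 and 1.42 TPM, Slc25a45 0.890 TPM, and Slc25a43 and Slc25a48 had 0 counts in replicate 1 and 3 and 6 in replicate 2. Slc25a54 had 0 counts in both libraries. Some levels are uncertain where annotated genes overlap, since the use of strand in counting is not given: 27.6% of the 31-nt words of Slc25a35 also occur in Rangrf, 8.04% of those of Slc25a25 in Naif1 and 6.03% of those of Slc25a26 in Lrig1, each on the opposite strand.

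Across the 16 pairs of relatives, 13 were called, 11 with the first-named gene higher and 2 with it lower. Genes far apart in level pass this rule when the libraries are close, related or not. How often pairs of other genes would be called was not counted, so the number describes these pairs only. The pairs not called were Slc25a28 with Slc25a37, Slc25a1 with Slc25a10 and Slc25a36 with Slc25a33, and each of them holds a member that was uneven between the libraries. Called pairs not yet given include Slc25a42 over Slc25a16 by 1.14 ± 0.20 on the log2 scale, which was 0.53 in the kallisto-layout table, Slc25a30 over Slc25a27 by 2.20 ± 0.13 (1.58 with a pseudocount of 1) and Slc25a14 minus Slc25a30 at -1.94 ± 0.34. Slc25a22 over Slc25a18 and Slc25a15 over Slc25a2 were called too, but the second genes had 2 to 4 counts, so the size of these differences depended on the pseudocount.

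**Figure D4:**
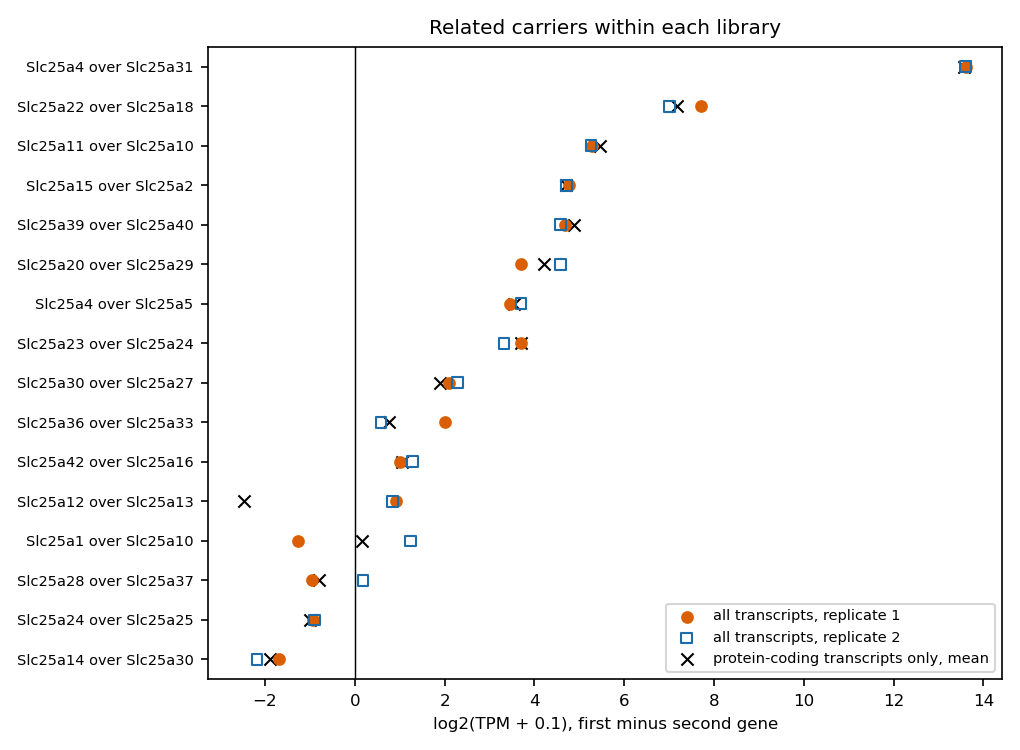
Difference of log2(TPM + 0.1) between related carriers, first minus second gene, with replicate 1 as filled circles, replicate 2 as open squares and the mean over protein-coding transcripts only as crosses. Slc25a12 over Slc25a13 is 0.88 with all transcripts and -2.46 with protein-coding transcripts only, and Slc25a1 over Slc25a10 lies on both sides of 0.

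Between the libraries most members were close. Over 38 members with a mean of 1 TPM or more, the median absolute difference of log2(TPM + 0.1) was 0.16, against 0.17 over 12510 genes of that level. The 13 members at 20 TPM or more had a median of 0.089 and a maximum of 0.34, that of Slc25a22, against a median of 0.11 over 3154 such genes. By the direction of replicate 1 minus replicate 2, 17 members were higher and 21 lower. The median difference was -0.026 for the members, against -0.023 over the 12510 genes.

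Slc25a37 and Slc25a1 were 2-fold or more apart. Slc25a37 was higher in replicate 1, by 1.09 on the log2 scale, making 1 of 38 members (2.63%) against 0.919% of all genes in that direction. Slc25a1 was lower in replicate 1, with a log2 difference of -2.52, making 1 of 38 members against 3.3% of all genes in that direction. In expected counts scaled to the library totals, replicate 1 over replicate 2 was 2.04 for Slc25a37 (exact 95% interval 1.90 to 2.19) and 0.171 for Slc25a1 (0.138 to 0.209). Slc25a33 lay just inside the limit with a log2 difference of -0.96. These intervals cover counting error only, and with 1 library on each side the differences have no replicate check.

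**Figure D5:**
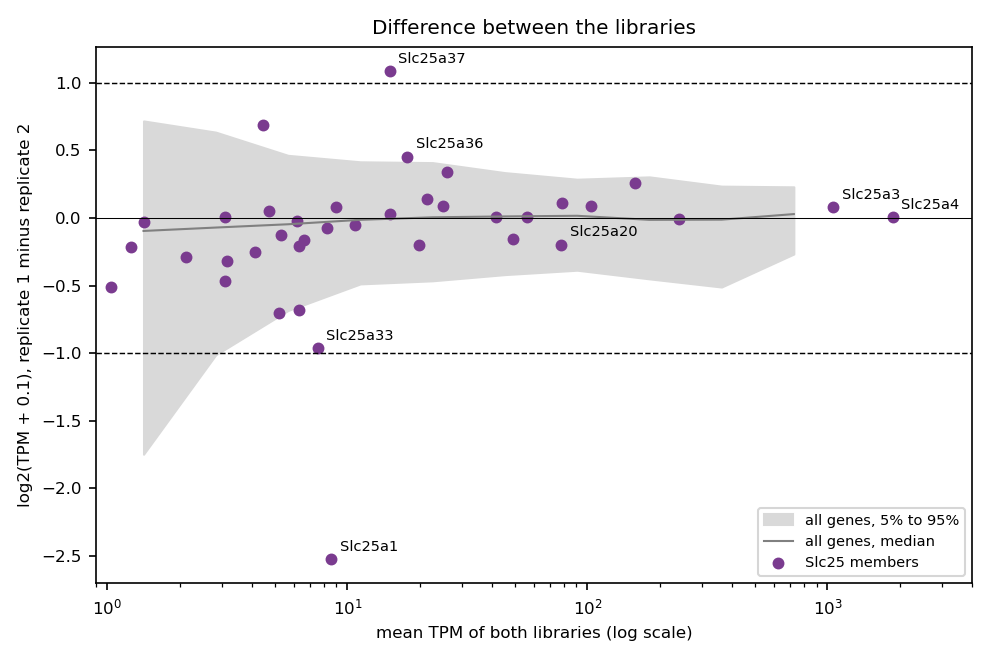
Difference of log2(TPM + 0.1), replicate 1 minus replicate 2, against mean TPM for the 38 members at a mean of 1 TPM or more, with the range from 5% to 95% of all genes of that level in grey and dashed lines at 2-fold. Slc25a37 lies above the upper line at 1.09 and Slc25a1 below the lower line at -2.52.

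Markers of several other cell types also differed between the libraries. All 7 matched erythroid markers of 8 listed were higher in replicate 1, with a sum of 23412 TPM in replicate 1 against 11151 TPM in replicate 2, the same direction as Slc25a37. All 8 adipocyte markers were lower in replicate 1, with sums of 242 and 573 TPM, as were all 6 brown adipocyte markers, with sums of 1231 and 1386 TPM. Both lists went in the same direction as Slc25a1 and Slc25a33. Among the adipocyte markers, Lep was near the floor at 0.03 and 0.04 TPM, and Fabp4, with 207 and 301 TPM, is also on the endothelial list. Cox8b held most of the brown adipocyte sums, with 1173 TPM in replicate 1 against 1250 TPM in replicate 2. Ucp1 had 3.52 and 41.8 TPM, Cidea 15.65 and 41.78 TPM, and Ppargc1a 38.15 and 48.84 TPM. Elovl3 (0.06 and 1.98 TPM) and Dio2 (0.54 and 1.09 TPM) were low. The sums thus show neither the size of the difference for the other brown adipocyte markers nor the amount of brown adipocyte RNA. Whether the RNA of Cox8b and Ppargc1a came from brown adipocytes was not tested. Atrial markers (6 of 6, sums of 715 and 1385 TPM), lymphocyte markers (8 of 8, 3.69 and 20.5 TPM), fibroblast markers (6 of 6, 214 and 248 TPM) and airway markers (5 of 5, 0.57 and 234 TPM) were lower in replicate 1 as well. The airway genes Scgb1a1, Scgb3a2 and Bpifa1 were at 0 in replicate 1. Endothelial markers went both ways, with 5 higher and 1 lower in replicate 1, and so did macrophage markers, with 1 higher and 5 lower. The lower endothelial marker was Fabp4, counted among the adipocyte markers too. Cardiomyocyte markers were slightly higher in replicate 1 (8 of 8), with sums of 41942 and 40076 TPM. The part of these cell types in the differences was not tested, and in bulk tissue fewer cells of a type and less RNA per cell cannot be told apart.

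The tables differed for the members about as for other genes. Of the 38 members, 4 were higher and 34 lower in the RSEM-layout table than in the kallisto-layout table, with a median log2 difference of -0.18 against -0.17 over 11335 nuclear protein-coding genes. The kallisto-layout level was over 1.5-fold higher for 3 members (7.89%), against 9.25% of those genes, and over 1.5-fold lower for 0 members, against 1.27%. The 3 members were Slc25a39 (1.62-fold), Slc25a16 (1.59-fold) and Slc25a47 (1.57-fold). In the kallisto-layout table Slc25a39 had 136 TPM in replicate 1 against 118 TPM in replicate 2, and Slc25a16 had 12.4 and 16.1 TPM.

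Most members were read from the same annotated transcript throughout. Of 35 detected members with several transcripts, 27 (77.1%) had the same leading transcript in both libraries and both tables, against 67.2% of 10103 genes. Within the RSEM-layout table the libraries shared the leading transcript for 31 members, and within the kallisto-layout table for 34. The 8 members without a constant leader included Slc25a14, Slc25a22, Slc25a23, Slc25a32, Slc25a40, Slc25a51 and Slc25a53. Protein-coding transcripts held a median of 93.3% of the TPM of a detected member in the RSEM-layout table. They held under 50% for 3 of 37 members (8.11%), against 7.03% of nuclear protein-coding genes. These were Slc25a12 with 9.58%, Slc25a47 with 22.7% and Slc25a53 with 11.3%, and the same 3 members were under 50% in the kallisto-layout table, with 11.9%, 16.3% and 14.5%.

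Other genes of transport across the mitochondrial membranes give the level of the members a scale. The 5 genes with the carrier fold under other names were all detected. Ucp2 led them with 108 TPM in replicate 1 against 147 TPM in replicate 2, and Mtch1 and Mtch2, outer membrane proteins, averaged 75.6 and 74.0 TPM. Ucp1, the uncoupling protein of brown fat, had 3.52 TPM in replicate 1 against 41.8 TPM in replicate 2. Of 18 other transporters of the inner membrane, 16 were detected, with a median of 8.65 TPM. The pyruvate carrier subunits Mpc1 and Mpc2 averaged 343 ± 4.50 and 244 ± 3.42 TPM, between Slc25a3 and Slc25a5 by level. They were higher in the kallisto-layout table, with 516 TPM in replicate 1 against 510 TPM in replicate 2 for Mpc1. Mpc2 had 443 and 465 TPM there, so the tables differed more than the libraries. The outer membrane channels Vdac1, Vdac2 and Vdac3 averaged 431, 194 and 168 TPM. All 10 genes of the machinery that inserts carriers into the inner membrane were detected, at 27.7 TPM by median, and they ran from 6.85 TPM for Agk to 49.98 TPM for Timm10.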

How the data were processed

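Total RNA, reduced in ribosomal RNA per the spike-in label, was sequenced in 2 libraries of 1 group. The RSEM-layout gene and transcript tables and the kallisto-layout transcript table refer to mm10 and GENCODE M21, per the deposited readme. Not given in the sources used here are the programs, their versions and the use of strand. The authors deposited expected counts, which are estimated counts that divide a read among all genes it matches, and TPM, scaled over all rows including mitochondrial genes and spike-ins. Isoform percent was deposited by the authors as a transcript's share of the TPM of its gene.

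The kallisto-layout TPM was summed per gene. Ratios used log2(TPM + 0.1), which understates differences of low genes, and no test was run since there was no second group. Exact binomial intervals at 95% compared rounded counts between the libraries. The count ratio and its interval were tried on simulated counts with sampling error only, for genes well above the floor. That simulation did not cover TPM ratios, low counts or spread between libraries. Shared sequence was searched as 31-nt words of protein-coding transcripts in all GENCODE M21 transcripts on both strands. Members, roles, pairs and lists were chosen with earlier results of these data known. Values in both libraries were given for the 12 highest members, all members of 6 roles, and those 2-fold apart between libraries or, among the 20 highest, over 1.5-fold apart between tables. Alternatives were the kallisto-layout table, posterior mean TPM, other scalings, thresholds and pseudocounts, single libraries and protein-coding transcripts only. The family counts include 1 member that is not reported here on its own. Sequences were read from GENCODE M21 transcripts. Python 3.11.15, pandas 2.3.3, scipy 1.17.1 and matplotlib 3.10.9 were used.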

Additional observations from a re-analysis of the deposited data

How the results depend on the processing

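The members held 0.907% of nuclear protein-coding TPM in the kallisto-layout table and 0.969% with posterior mean TPM. The median of the members was 15.4 TPM when TPM was scaled to nuclear protein-coding genes and 9.198 TPM over members with a mean of 1 TPM or more. Slc25a3-206 took 75.5% of Slc25a3 in the kallisto-layout table and 92.8% of its protein-coding transcripts. Slc25a12 over Slc25a13 was -2.46 ± 0.10 on the log2 scale with protein-coding transcripts only, an alternative chosen after seeing the data, which counts only Slc25a12-206 for Slc25a12. The other called pairs kept their direction and call under it, and all 13 did so in the kallisto-layout table, with posterior mean TPM and with a pseudocount of 1. The 3 uncalled pairs stayed uncalled, but their signs were not stable: the mean of Slc25a1 over Slc25a10 was -0.017 and turned positive in these 4 alternatives, up to 0.21, and with protein-coding transcripts only replicate 2 changed sign for Slc25a28 over Slc25a37 (-0.051) and Slc25a36 over Slc25a33 (-0.019). With a single library, 37 to 39 members were at 1 TPM or more, the share of nuclear protein-coding TPM was 0.976% to 0.986%, that of Slc25a4 46.6% to 47.5%, the median 5.49 to 6.97 TPM, Slc25a3-206 92.1% to 92.5%, Slc25a4 over Slc25a5 3.45 to 3.70 and Slc25a12 over Slc25a13 0.84 to 0.92. Members 2-fold apart between the libraries numbered 2, or 3 in the kallisto-layout table, where Slc25a33 and Slc25a45 joined Slc25a1 and Slc25a37 fell short at 0.94, 3 with the scaling to nuclear protein-coding genes (Slc25a33 added) and 3 with no filter (Slc25a43 added). Depth limits the 7 members with 0 to 6 counts in every library. No paired analysis was possible because there was only 1 group.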
